A study of Mus musculus with 12 samples.

Results

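RNA of thymic tissue was examined for 34 genes that build ribosomes, chosen as a list by gene symbol: subunits of RNA polymerase I, assembly factors of the small and of the large ribosomal subunit, core proteins of small nucleolar ribonucleoprotein particles (snoRNPs), and abundant multifunctional nucleolar proteins. Of these, 33 had a row among the 24478 gene symbols of the read tables, and all 33 passed the filter on low counts that left 15606 genes for testing. Noc2l, the remaining listed gene, was not analysed here. The 33 comprised 5 polymerase I subunits, 8 small subunit factors, 11 large subunit factors, 5 snoRNP proteins and 4 other nucleolar proteins.

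Poly(A) RNA was sequenced from 12 libraries of mice in 4 groups of 3. T58A lymphomas were tumours that arose spontaneously in the thymus, labelled as T cells whose only MYC was an ectopic T58A mutant. S62A lymphomas were the same kind of tumour with an ectopic S62A mutant as the only MYC. S62A splenomegaly masses were thymic tissue of S62A animals with an enlarged spleen, labelled as T and B cells with both the ectopic mutant and endogenous MYC. Controls were thymic tissue labelled as T cells with endogenous MYC only. In both mutants alanine replaces a residue of MYC whose phosphorylation governs turnover of the protein. The sources used here give neither strain nor age, nor the promoter driving the mutants. They also do not state separate animals for the 3 libraries of a group, so the p-values rest on a spread that may be technical in part. All S62A libraries share 1 title code that no control carries, so this code and the mutant cannot be told apart against control. 1 control shares its title code with the T58A lymphomas. Libraries held 9577373 to 22437969 reads in genes.

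Ribosomes are made in the nucleolus. RNA polymerase I transcribes the long precursor of the ribosomal RNAs, snoRNPs guide its chemical modification and some of its early cleavages, and separate sets of assembly factors fold and trim the parts that become the small and the large subunit. MYC is known to stimulate each of these steps, and many genes for the factors carry the sequence CACGTG, the E-box bound by MYC with its partner MAX, near their start. The libraries hold polyadenylated RNA, so they report the messenger RNAs of the machinery and not the ribosomal RNA that it makes.

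Promoter sequences of a member from each of 4 steps are shown, because the E-box is the element through which MYC is known to act on such genes and these 4 include windows with and without it. The windows are RefSeq sequences of the mouse build GRCm38.p6, 250 bases before to 50 bases after the annotated start, read 5′ to 3′ on the gene's strand, and capitals mark CACGTG. Polr1a lies at chr6:71908803-71909102 on the plus strand. Tsr1 lies at chr11:74897830-74898129 on the plus strand. Nop2 lies at chr6:125131633-125131932 on the plus strand. Nop58 lies at chr1:59684756-59685055 on the plus strand.
Polr1a: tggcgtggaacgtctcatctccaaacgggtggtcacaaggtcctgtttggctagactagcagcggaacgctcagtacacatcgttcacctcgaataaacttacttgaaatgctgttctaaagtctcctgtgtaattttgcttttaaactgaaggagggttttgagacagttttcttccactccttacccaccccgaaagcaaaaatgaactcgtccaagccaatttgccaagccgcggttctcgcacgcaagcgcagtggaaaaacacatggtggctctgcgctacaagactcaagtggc
Tsr1: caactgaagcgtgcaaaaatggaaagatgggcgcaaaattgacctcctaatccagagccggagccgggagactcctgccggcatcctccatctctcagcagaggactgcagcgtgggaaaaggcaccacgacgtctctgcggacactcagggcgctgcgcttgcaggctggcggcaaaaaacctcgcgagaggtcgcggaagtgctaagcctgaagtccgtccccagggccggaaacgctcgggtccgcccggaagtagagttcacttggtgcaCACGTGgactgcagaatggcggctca
Nop2: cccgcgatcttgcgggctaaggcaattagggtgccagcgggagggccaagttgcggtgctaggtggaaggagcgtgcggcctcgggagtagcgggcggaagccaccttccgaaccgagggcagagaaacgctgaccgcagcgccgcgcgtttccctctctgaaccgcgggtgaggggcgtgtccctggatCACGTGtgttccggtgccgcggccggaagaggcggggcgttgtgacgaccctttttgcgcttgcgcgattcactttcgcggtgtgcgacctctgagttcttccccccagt
Nop58: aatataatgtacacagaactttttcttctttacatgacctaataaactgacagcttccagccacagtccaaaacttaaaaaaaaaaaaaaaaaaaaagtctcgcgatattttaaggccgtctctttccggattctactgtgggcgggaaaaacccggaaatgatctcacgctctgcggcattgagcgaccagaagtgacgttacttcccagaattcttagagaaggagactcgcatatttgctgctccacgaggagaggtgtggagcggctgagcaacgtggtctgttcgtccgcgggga
The Tsr1 window held CACGTG once, beginning at position 24 from the start. The Nop2 window held it once, beginning at position -60 from the start. Neither the Polr1a nor the Nop58 window held these letters.

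A window was matched for 28 of the 33 members, and Bop1, Fbl, Rrs1, Rrp12 and Npm1 had none. CACGTG, which reads the same on both strands, was found in 8 of them, or 28.6%, against 10.9% of the 11772 tested genes with a window and 8.09% of all 27025 genes with a window. The 8 were Imp4, Utp20, Tsr1 and Wdr43 among small subunit factors, Nop2, Pes1 and Nle1 among large subunit factors, and Mybbp1a. Counts by step are of genes with a window. The motif was held by 0 of 5 polymerase I, 4 of 7 small subunit and 3 of 9 large subunit genes. For snoRNP proteins this was 0 of 4 genes, and for other nucleolar proteins 1 of 3. The 8 members with the motif had a median log2 fold change of 1.54 in S62A lymphomas against control, and the 20 without it a median of 0.98. In T58A lymphomas against control these medians were 1.35 with the motif and 0.79 without it. The ranges of the sets overlapped in both comparisons, from 0.32 to 2.65 with the motif and from 0.02 to 1.95 without it in S62A lymphomas. The bases just after the RefSeq start were also looked for in the first 600 bases of GENCODE transcripts of the same gene. They were found for 20 of the 28 members, among them Polr1a, Tsr1 and Nop58, and not for the other 8, among them Nop2. The motif was held by 4 of the 20, namely Tsr1, Wdr43, Pes1 and Nle1, and by 4 of the 8, namely Imp4, Utp20, Nop2 and Mybbp1a, so the position of these 4 relative to a transcript start is uncertain. These are descriptions of letters in a window, and no binding was measured.

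The members were higher in both kinds of lymphoma than in control tissue. In T58A lymphomas 27 of 33 rose and 0 fell at an adjusted p under 0.05 (edgeR's quasi-likelihood test, Benjamini-Hochberg adjustment over all genes tested), where 18.8% of all tested genes rose and 17.4% fell. In S62A lymphomas 30 of 33 rose and 0 fell, where 21.9% of all tested genes rose and 22.2% fell. The median log2 fold change of the members was 1.09 in T58A lymphomas and 1.22 in S62A lymphomas, and that of all tested genes was 0.01 and 0.00. In S62A splenomegaly masses 15 of 33 rose and 3 fell, where 22.9% of all tested genes rose and 26.3% fell, and the median of the members was 0.35, that of all tested genes -0.08. The 3 comparisons share the same 3 control libraries. Tissue was sequenced in bulk, so a change in the share of cells that express a gene and a change of RNA per cell cannot be told apart.

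Without overlap between libraries, 29 members were higher in T58A lymphomas than in control, where 28.8% of tested genes were, and 30 in S62A lymphomas, where 28.0% were. In splenomegaly masses 18 members stood above every control library and 4 below, where 32.0% and 38.5% of tested genes did. Among T58A lymphomas and the 1 control that carries their title code, 7 of 33 members rose, where 1.11% of tested genes did, and the median of the members was 1.10. Those 7 were Tsr1, Rrp12, Wdr43, Gnl3, Nop58, Ncl and Npm1, and this restriction leaves a single control whose spread is assumed to equal that of the lymphomas.

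**Figure D1:**
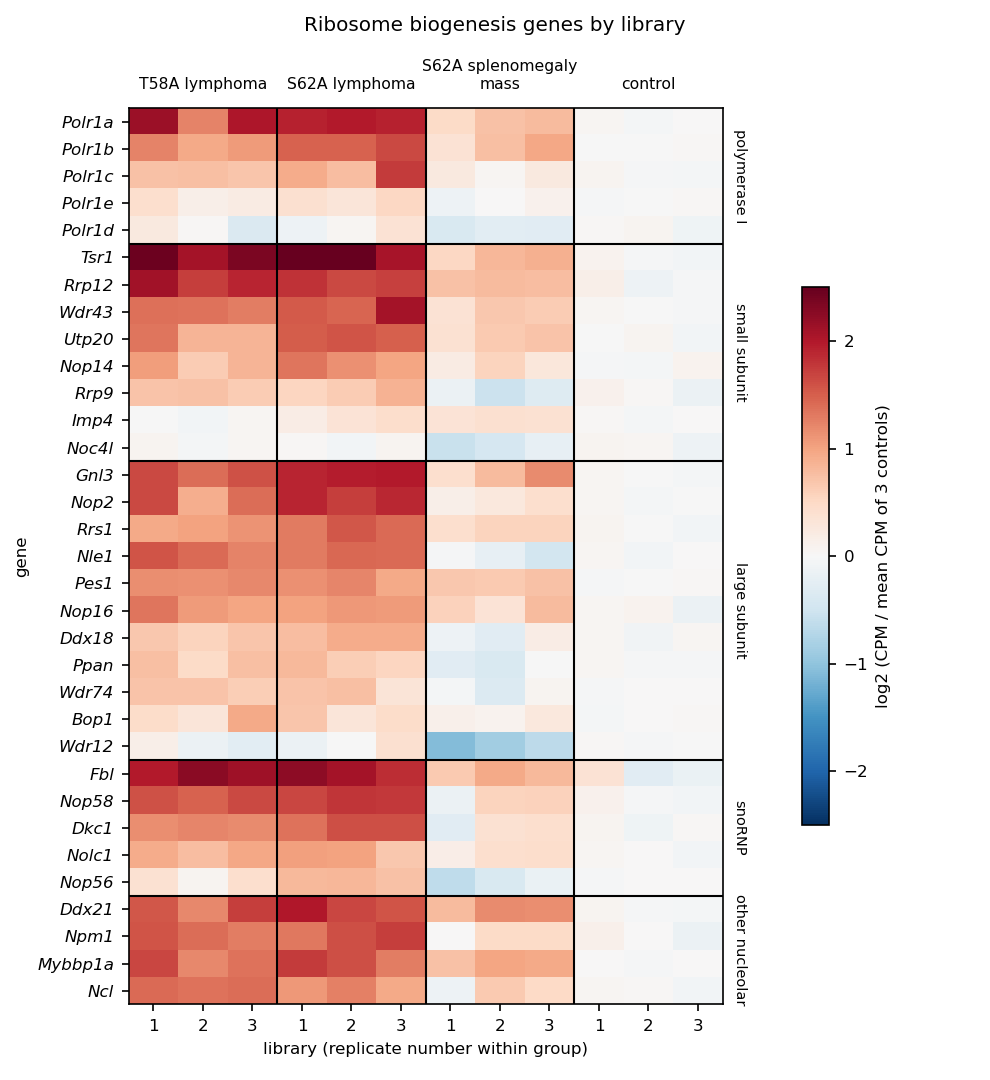
Heat map of the 33 members in 12 libraries. Rows are genes, ordered by step and then by fold change in S62A lymphomas; columns are libraries by group; colour is the log2 ratio of a library's CPM to the mean CPM of the 3 controls, red above and blue below. The T58A and S62A lymphoma columns are red in most rows, and the rows palest in the T58A columns include Polr1d, Imp4, Noc4l and Wdr12.

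Every lymphoma library stood above every mass and every control in its median member. The median member was 1.16, 0.94 and 1.06 log2 units above the control mean in the 3 T58A lymphomas, 1.29, 1.26 and 1.28 in the S62A lymphomas, 0.16, 0.42 and 0.45 in the splenomegaly masses, and 0.05, -0.02 and -0.03 in the controls. Summed over the 33 members, CPM (counts scaled to library size, with library sizes scaled by TMM) came to 6582 to 7514 in T58A lymphomas, 7275 to 7632 in S62A lymphomas, 3269 to 4303 in splenomegaly masses and 2927 to 3140 in controls. Ncl and Npm1 weigh heavily in these sums. Without them the sums were 3846 to 4589, 4836 to 5172, 2269 to 2803 and 1933 to 2028, in the same order of groups. Splenomegaly mass 1 was the lowest of its group for 24 of 33 members, and T58A lymphoma 2 for 21. The coefficient of variation of CPM within a group had a median over members of 10.4% in T58A lymphomas, 9.58% in S62A lymphomas, 12.9% in splenomegaly masses and 4.31% in controls.

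Markers of several cell types also differed between the groups. Summed CPM of 10 T cell markers lay between 3088 and 4308 in T58A lymphomas, 2496 and 4147 in S62A lymphomas, 915 and 1035 in splenomegaly masses and 9158 and 9296 in controls, and none of the 10 was at 0 in a group. Summed CPM of 10 B cell markers lay between 37.2 and 437 in T58A lymphomas, 30.5 and 48.8 in S62A lymphomas, 2033 and 2700 in splenomegaly masses and 83.2 and 87.5 in controls. The masses carried both the T and the B cell markers that their label names, and the lymphomas and controls carried T cell markers. In T58A lymphomas 5 of the 10 B cell markers rose as well. Summed CPM of 8 markers of immature, CD4 and CD8 double-positive thymocytes lay between 3438 and 4447 in the T58A lymphomas, 2352 and 4349 in S62A lymphomas, 322 and 355 in splenomegaly masses and 7588 and 8829 in controls. Of these 8, 4 fell in the T58A lymphomas, 6 in the S62A lymphomas and 8 in masses against control, and Ptcra alone was at 0 in all libraries of a group, the T58A lymphomas. Summed CPM of 10 macrophage markers lay between 2159 and 3499 in T58A lymphomas, 1992 and 3114 in S62A lymphomas, 4426 and 8134 in splenomegaly masses and 643 and 741 in controls. Against control 8 of the 10 rose in each kind of lymphoma and all 10 in masses. Itgam stood at 331 to 891 CPM in the T58A lymphomas, 438 to 1514 across S62A lymphomas and 60.5 to 112 in masses. S62A lymphoma 3 had 35.0 CPM of Csf1r and 1.93 of Mertk, where controls had 29.9 to 33.8 and 3.86 to 4.68. Of 8 granulocyte markers, the T58A lymphomas had 1 lower than control, the S62A lymphomas 8 and the masses 3. Summed CPM of 9 thymic epithelial markers lay between 127 and 189 in T58A lymphomas, 15.7 and 45.5 in S62A lymphomas, 69.3 and 76.5 in splenomegaly masses and 2275 and 2495 in controls. Of 10 proliferation markers, 1 rose and 2 fell in T58A lymphomas, 3 rose and 0 fell in S62A lymphomas, and 0 rose and 9 fell in splenomegaly masses, all against control. Myc itself read 159, 134 and 137 CPM in T58A lymphomas, 158, 203 and 157 in S62A lymphomas, 84.2, 91.6 and 99.98 in splenomegaly masses and 85.5, 79.9 and 82.9 in controls, and mutant and endogenous transcripts were not separated. The part of these shifts in the results below was not tested.

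Of the 5 polymerase I subunits 3 rose in the T58A lymphomas, 4 in the S62A lymphomas and 2 in splenomegaly masses, and 0 fell. Over all tested genes 18.8%, 21.9% and 22.9% rose in these groups, and 17.4%, 22.2% and 26.3% fell. Polr1a (NM_009088), which spans chr6:71859047-71929355 on the plus strand of mm9, the build of the read tables, is the largest and catalytic subunit. It was at 181, 97.1 and 168 CPM in T58A lymphomas, 156, 163 and 157 in S62A lymphomas, 57.0, 68.3 and 71.1 in splenomegaly masses and 42.5, 39.8 and 41.2 in controls. Every lymphoma library lay above every mass, and every mass above every control, although T58A lymphoma 2 was well below the other lymphomas. Its log2 fold change was 1.85 ± 0.20 (SE) in T58A lymphomas (adjusted p = 7.12e-05), 1.95 ± 0.20 in S62A lymphomas (adjusted p = 3.93e-05) and 0.67 ± 0.19 in splenomegaly masses (adjusted p = 0.0145), all against control. Without control 2 the adjusted p in the masses was 0.0522, the highest of a range from 0.00114 over 15 settings. Polr1b, the second largest subunit, which completes the active centre, rose by 1.09 ± 0.16 in the T58A lymphomas, 1.54 ± 0.16 in the S62A lymphomas and 0.72 ± 0.15 in splenomegaly masses. Polr1c, which polymerase I shares with polymerase III, rose by 0.73 ± 0.21 in T58A lymphomas and by 1.22 ± 0.21 in S62A lymphomas. Its adjusted p in T58A lymphomas was 0.0199 with all libraries and 0.0514, 0.0647 and 0.0648 when control 1, 2 or 3 was left out, within a range of 0.000758 to 0.1004 over 16 settings. S62A lymphoma 3 had 180.1 CPM of Polr1c, against 102 and 90.9 in the other S62A lymphomas.

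Polr1d, the partner of Polr1c in the assembly platform of polymerases I and III, was at 116, 99.0 and 76.1 CPM in T58A lymphomas, 88.8, 100.2 and 125 in S62A lymphomas, 74.5, 81.6 and 80.3 in splenomegaly masses and 99.97, 102 and 90.1 in controls. Lymphoma and control libraries interleaved, and the 3 masses lay below the 3 controls. Its log2 fold change against control was -0.01 ± 0.16 in T58A lymphomas (adjusted p = 0.98), 0.10 ± 0.16 in S62A lymphomas (adjusted p = 0.634) and -0.31 ± 0.16 in splenomegaly masses (adjusted p = 0.143). A further transcript of Polr1d held 3144 reads over the 12 libraries, against 19046 for the one used, and was not called either, at 0.28, 0.09 and -0.37 in T58A lymphomas, S62A lymphomas and masses. Polr1e, a subunit specific to polymerase I that helps the enzyme engage its promoter, was at 38.3, 31.6 and 32.8 CPM in T58A lymphomas, 37.6, 35.5 and 40.7 in S62A lymphomas, 26.1, 28.8 and 30.7 in splenomegaly masses and 27.9, 28.5 and 29.3 in controls. Both sets of lymphoma libraries lay above the controls, by small margins. The fold change was 0.26 ± 0.13 in T58A lymphomas (adjusted p = 0.151) and 0.41 ± 0.13 in S62A lymphomas (adjusted p = 0.0295). The S62A call was lost without any 1 control or without S62A lymphoma 1 or 3. It was also lost with library size alone, with no filter and with limma on FPKM. It held in 6 of 15 settings, with adjusted p from 0.0117 to 0.104.

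On the length-scaled FPKM of the authors the subunits were also unequal in level. Polr1d stood at 121 ± 23.5 FPKM (SD, n = 3) in T58A lymphomas, 124 ± 22.1 in S62A lymphomas, 93.004 ± 6.28 in splenomegaly masses and 124 ± 9.30 in controls. Polr1a stood at 31.4 ± 9.42 FPKM in T58A lymphomas, 32.0 ± 1.10 in S62A lymphomas, 13.1 ± 1.65 in masses and 8.86 ± 0.287 in controls. The FPKM ratio of Polr1a to Polr1d was 0.268 ± 0.104 in T58A lymphomas, 0.262 ± 0.0440 in S62A lymphomas, 0.141 ± 0.0104 in masses and 0.0719 ± 0.00570 in controls. The ratio of Polr1a to Polr1b, the pair that forms the active centre, was 1.66 ± 0.388 in T58A lymphomas, 1.31 ± 0.110 in S62A lymphomas, 0.968 ± 0.0974 in masses and 0.987 ± 0.0385 in controls. The Polr1a to Polr1d ratio of each lymphoma library exceeded that of each mass and each control library.

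Of the small subunit factors 6 of 8 rose in the T58A lymphomas, 7 in the S62A lymphomas and 5 in splenomegaly masses, where 1 fell. Their medians against control were 0.94, 1.34 and 0.47 log2 units in these 3 groups. Over all tested genes 18.8%, 21.9% and 22.9% rose in the same groups, and 26.3% fell in masses. On mm9 Tsr1 (NM_177325) spans chr11:74711582-74722842 on the plus strand. Tsr1, a factor related to translational GTPases that acts on late precursors of the small subunit, was at 382, 296 and 355 CPM in T58A lymphomas, 589.8, 435 and 289 in S62A lymphomas, 99.9, 124 and 129.9 in masses and 73.8, 68.7 and 66.5 in controls. The groups did not overlap with control, and the S62A lymphomas spread over a wider range than any other group. Its fold change was the largest of any member in both kinds of lymphoma, 2.30 ± 0.23 in T58A lymphomas (adjusted p = 4.51e-05) and 2.65 ± 0.23 in S62A lymphomas (adjusted p = 1.49e-05). In masses it rose by 0.76 ± 0.22 (adjusted p = 0.0144), with 0.0505 without control 3 and 0.000901 at the lowest over 15 settings. Tsr1 overlaps Srr, the gene of serine racemase on the opposite strand, by 2982 bases, and Srr rose by 1.76 ± 0.20 in the T58A lymphomas and 1.95 ± 0.21 in the S62A lymphomas and was at 0.32 ± 0.20 in masses. The strand setting of the counting is not given in the sources used here, so reads of the overlap cannot be assigned to 1 of the 2 genes with certainty.

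Rrp12, a repeat protein that in yeast helps export both subunits, was at 76.6, 58.6 and 66.5 CPM in T58A lymphomas, 61.9, 55.7 and 58.4 in S62A lymphomas, 29.4, 30.9 and 30.3 in masses and 19.6, 16.3 and 17.4 in controls. The masses were tightly grouped between the lymphomas and the controls without overlap. Its fold change against control was 1.92 ± 0.14 in T58A lymphomas (adjusted p = 6.02e-06), 1.72 ± 0.14 in S62A lymphomas (adjusted p = 8.12e-06) and 0.77 ± 0.13 in masses (adjusted p = 0.000793). Wdr43 and Utp20, scaffold proteins of the early small subunit particle, rose by 1.34 ± 0.16 and 1.03 ± 0.15 in the T58A lymphomas, by 1.72 ± 0.16 and 1.52 ± 0.15 in the S62A lymphomas and by 0.56 ± 0.16 and 0.58 ± 0.15 in masses. Nop14, of the same particle, rose by 0.85 ± 0.14 in T58A lymphomas and 1.16 ± 0.14 in S62A lymphomas. Rrp9, a protein of the snoRNP that directs the first cleavages, rose by 0.69 ± 0.14 in both kinds of lymphoma and was at -0.33 ± 0.14 in masses (adjusted p = 0.0756).

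Imp4 and Noc4l were the small subunit factors not called in T58A lymphomas. Imp4, which works with that same snoRNP, was at 59.1, 56.5 and 61.5 CPM in T58A lymphomas, 67.2, 75.0 and 81.2 in S62A lymphomas, 75.3, 78.9 and 77.9 in masses and 60.8, 57.7 and 59.9 in controls. T58A lymphomas and controls overlapped, while the S62A lymphomas and the masses lay above both. Imp4 was at -0.01 ± 0.10 in T58A lymphomas (adjusted p = 0.941) and rose by 0.32 ± 0.10 in S62A lymphomas (adjusted p = 0.0239) and by 0.38 ± 0.10 in masses (adjusted p = 0.00973). The S62A call was lost without any 1 control or without S62A lymphoma 2 or 3. It was also lost with library size alone, with no filter and with limma on FPKM. It held in 6 of 15 settings, with adjusted p from 0.0126 to 0.1002. The call in masses held in 13 of 15 settings and had 0.0517 without control 2, the highest value of a range from 0.000214. Noc4l, the partner of Nop14, was at 61.5, 56.8 and 61.2 CPM in T58A lymphomas, 60.6, 56.5 and 62.3 in S62A lymphomas, 40.3, 44.2 and 51.1 in masses and 62.1, 61.1 and 53.8 in controls. The lymphomas and the controls covered the same range, and all masses lay below it. Its fold change was 0.02 ± 0.12 in T58A lymphomas (adjusted p = 0.909), 0.02 ± 0.12 in S62A lymphomas (adjusted p = 0.91) and -0.38 ± 0.12 in masses (adjusted p = 0.0211), the last with adjusted p between 0.00305 and 0.101 over 15 settings and over 0.05 without control 1 or 2 or without mass 1 or 2.

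**Figure D2:**
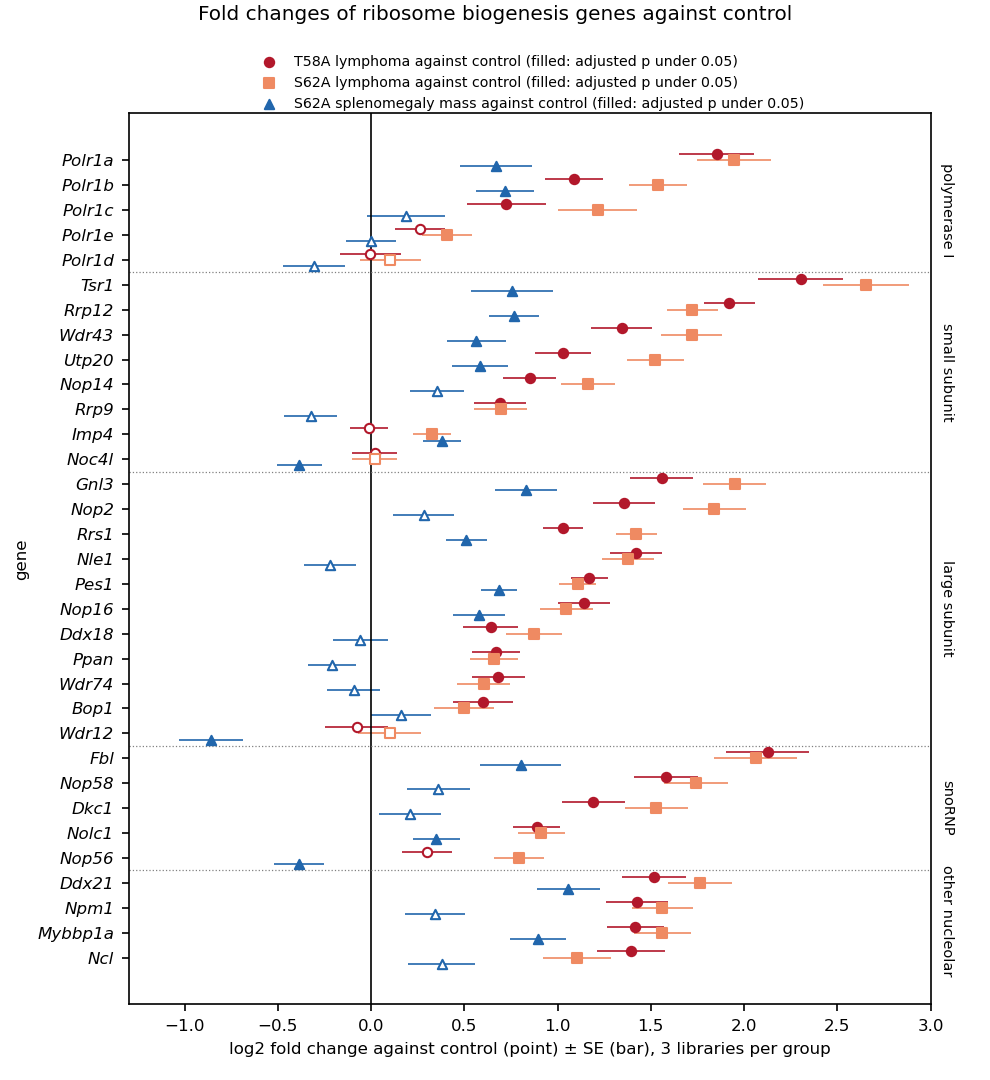
Fold changes of the 33 members against control, by step. The horizontal axis is the log2 fold change, points are estimates with bars of 1 SE from 3 libraries per group, filled symbols have an adjusted p under 0.05, circles are T58A lymphomas, squares S62A lymphomas and triangles S62A splenomegaly masses. The lymphoma points of most genes lie right of the mass points, with Tsr1 farthest right at 2.30 and 2.65 and Wdr12 farthest left at -0.86 in masses.

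Large subunit factors were the most numerous step, and 10 of 11 rose in each kind of lymphoma, with medians of 1.03 in T58A lymphomas and 1.05 in S62A lymphomas. In splenomegaly masses 4 rose and 1 fell, with a median of 0.16. Over all tested genes 22.9% rose and 26.3% fell in masses, while 18.8% rose in the T58A and 21.9% in the S62A lymphomas. Gnl3, a nucleolar GTPase also called nucleostemin, was at 208, 175 and 200.1 CPM in T58A lymphomas, 247, 258 and 260.5 in S62A lymphomas, 88.0, 114 and 150.2 in masses and 68.3, 65.6 and 64.2 in controls. The 4 groups did not overlap, and the masses were spread widely between control and lymphoma levels. Its fold change was 1.56 ± 0.17 in T58A lymphomas (adjusted p = 7.17e-05), 1.95 ± 0.17 in S62A lymphomas (adjusted p = 1.47e-05) and 0.83 ± 0.17 in masses (adjusted p = 0.00184).

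Nop2, the methyltransferase of the large subunit RNA, was at 209, 125 and 175 CPM in T58A lymphomas, 246, 220.0 and 244 in S62A lymphomas, 73.0, 79.9 and 88.5 in masses and 68.5, 64.0 and 66.0 in controls. T58A lymphoma 2 was lowest among the lymphomas here as for Polr1a, and the masses lay just above the controls. The fold change was 1.36 ± 0.17 in T58A lymphomas (adjusted p = 0.000172), 1.84 ± 0.17 in S62A lymphomas (adjusted p = 2.02e-05) and 0.28 ± 0.16 in masses (adjusted p = 0.175). Nle1, which the ATPase Midasin acts on to mature the large subunit, was at 81.2, 72.8 and 64.1 CPM in T58A lymphomas, 66.5, 73.1 and 72.3 in S62A lymphomas, 26.5, 23.7 and 19.8 in masses and 28.1, 26.0 and 27.5 in controls. Masses and controls overlapped, and both were far below the lymphomas. Nle1 rose by 1.42 ± 0.14 in T58A lymphomas (adjusted p = 4.42e-05) and by 1.38 ± 0.14 in S62A lymphomas (adjusted p = 3.72e-05), and was at -0.22 ± 0.14 in masses (adjusted p = 0.212).

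Rrs1, which helps to place a ribosomal RNA-protein complex in the large subunit, was at 79.1, 82.6 and 89.9 CPM in T58A lymphomas, 100.5, 120.1 and 109.9 in S62A lymphomas, 54.7, 60.6 and 60.5 in masses and 43.1, 40.8 and 39.3 in controls. The 4 groups were stepped without overlap. Its fold change was 1.03 ± 0.11 in T58A lymphomas (adjusted p = 6.69e-05), 1.42 ± 0.11 in S62A lymphomas (adjusted p = 7.35e-06) and 0.51 ± 0.11 in masses (adjusted p = 0.00266). Nop16, a nucleolar large subunit factor, rose by 1.14 ± 0.14 in the T58A lymphomas, 1.05 ± 0.14 in the S62A lymphomas and 0.58 ± 0.14 in masses. Ddx18, an RNA helicase, rose by 0.64 ± 0.15 and 0.87 ± 0.15 in T58A and S62A lymphomas and was at -0.06 ± 0.15 in masses. Ppan and Wdr74, factors of the large subunit precursor, rose by 0.67 ± 0.13 and 0.68 ± 0.14 in T58A lymphomas and by 0.66 ± 0.13 and 0.61 ± 0.14 in S62A lymphomas, and were at -0.21 ± 0.13 and -0.09 ± 0.14 in masses.

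Pes1, Bop1 and Wdr12 form the PeBoW complex, which processes the RNA of the large subunit, and 2 of the 3 partners rose in the lymphomas. Pes1 rose by 1.17 ± 0.10 in T58A lymphomas (adjusted p = 1.95e-05), 1.11 ± 0.10 in S62A lymphomas (adjusted p = 1.64e-05) and 0.69 ± 0.10 in masses (adjusted p = 0.000213). Bop1 rose by 0.60 ± 0.16 in T58A lymphomas (adjusted p = 0.014) and 0.50 ± 0.16 in S62A lymphomas (adjusted p = 0.0272), and was at 0.16 ± 0.16 in masses. The T58A call held in 14 of 16 settings, with 0.00578 as the lowest adjusted p. It was lost without control 1 (adjusted p = 0.0543) and with title code H only, which leaves 1 control. The S62A call was lost without any 1 control or S62A lymphoma 1, with library size alone and with limma on FPKM. It held in 8 of 15 settings, with adjusted p from 0.0130 to 0.0907. Bop1 overlaps Scx on the opposite strand by 2031 bases, but Scx held only 286 reads over the 12 libraries, against 21846 for Bop1. Wdr12 was at 67.1, 54.9 and 50.9 CPM in T58A lymphomas, 54.9, 60.7 and 79.8 in S62A lymphomas, 28.8, 33.2 and 38.7 in masses and 62.3, 59.6 and 60.5 in controls. The controls fell inside the range of both lymphoma groups, and the masses lay below every other library. Its fold change was -0.08 ± 0.17 in T58A lymphomas (adjusted p = 0.749), 0.10 ± 0.17 in S62A lymphomas (adjusted p = 0.657) and -0.86 ± 0.17 in masses (adjusted p = 0.00184), and the fall in masses passed the threshold in all 15 settings, with adjusted p from 7.47e-05 to 0.0102.

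The partners' proportions are given on the FPKM scale. The ratio of Pes1 to Wdr12 was 2.27, 2.74 and 3.10 in T58A lymphomas, 2.75, 2.61 and 1.65 in S62A lymphomas, 3.76, 3.25 and 2.92 in masses and 1.07, 1.14 and 1.16 in controls. The ratio of Bop1 to Wdr12 averaged 3.02 ± 1.06 in T58A lymphomas, 2.51 ± 0.712 in S62A lymphomas, 3.77 ± 0.440 in masses and 1.85 ± 0.0878 in controls (SD, n = 3 each). All 9 tumour and mass libraries had a higher ratio of Pes1 to Wdr12 than any control.

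**Figure D3:**
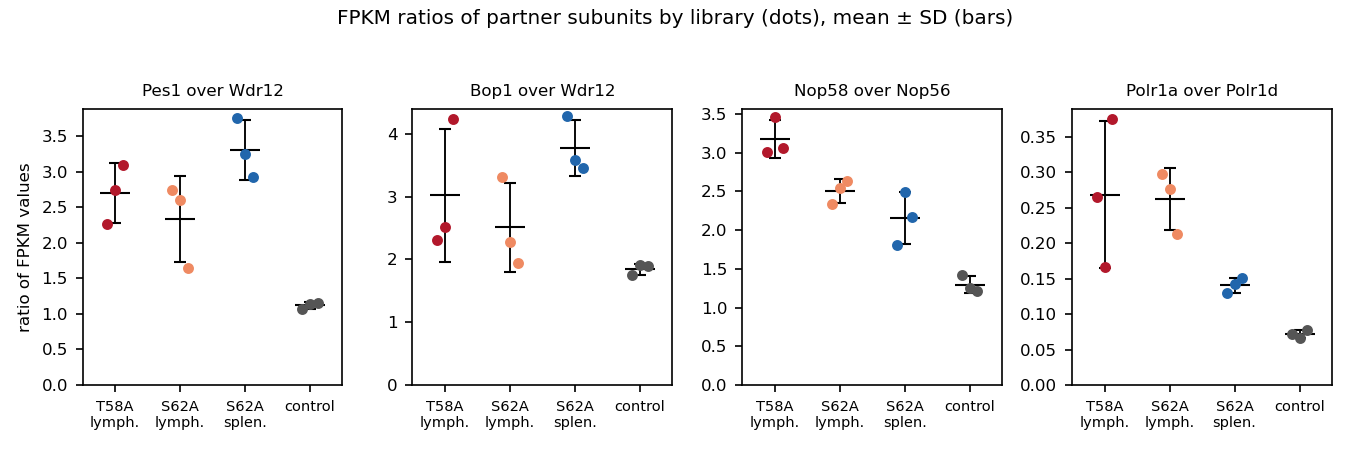
Ratios of the authors' FPKM values of partner subunits in each library. The vertical axis is the ratio from 0, dots are libraries, long ticks are group means and bars SD of 3 libraries, with lymph. for lymphoma and splen. for splenomegaly mass. Pes1 over Wdr12 averages 2.70 in the T58A lymphomas, 2.34 in the S62A lymphomas and 3.31 in masses, against 1.12 in controls.

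Among snoRNP proteins 4 of 5 rose in the T58A lymphomas, all 5 in the S62A lymphomas and 2 in splenomegaly masses, where 1 fell. The medians against control were 1.19, 1.53 and 0.35 log2 units in these groups. Over all tested genes 18.8%, 21.9% and 22.9% rose in the same groups, and 26.3% fell in masses. Fbl, fibrillarin, the methyltransferase of box C/D particles, was at 23.6, 28.4 and 25.8 CPM in T58A lymphomas, 27.9, 25.2 and 21.3 in S62A lymphomas, 9.29, 11.5 and 10.4 in masses and 7.59, 4.90 and 5.33 in controls. The groups were ordered without overlap except between the 2 kinds of lymphoma. The fold change was 2.13 ± 0.22 in T58A lymphomas (adjusted p = 6.19e-05), 2.06 ± 0.22 in S62A lymphomas (adjusted p = 5.31e-05) and 0.80 ± 0.22 in masses (adjusted p = 0.0103), the last with 0.0525 without control 2 and 0.000632 at the lowest over 15 settings. Fbl had the fewest reads of the members, 3291 over the 12 libraries and at least 89 in each.

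Nop56 and Nop58 form the paired scaffold of the box C/D particle and only Nop58 rose in T58A lymphomas. Nop58 was at 360.3, 332 and 374 CPM in T58A lymphomas, 377, 413 and 402 in S62A lymphomas, 107, 175 and 176 in masses and 128, 116 and 113 in controls. Mass 1 lay below the controls and the other masses above them, and all lymphomas were far higher. Nop58 rose by 1.58 ± 0.17 in T58A lymphomas (adjusted p = 7.94e-05) and by 1.74 ± 0.17 in S62A lymphomas (adjusted p = 3.15e-05), and was at 0.36 ± 0.17 in masses (adjusted p = 0.0991). Nop56 was at 122, 98.0 and 124 CPM in T58A lymphomas, 165, 165 and 155 in S62A lymphomas, 60.0, 71.5 and 82.9 in masses and 91.1, 94.5 and 94.6 in controls. The S62A lymphomas were highest, the T58A lymphomas reached down close to the controls, and the masses were lowest. Its fold change was 0.30 ± 0.13 in T58A lymphomas (adjusted p = 0.101, and 0.0486 to 0.487 over 16 settings), 0.79 ± 0.13 in S62A lymphomas (adjusted p = 0.00086) and -0.39 ± 0.13 in masses (adjusted p = 0.0317). The fall in masses passed the threshold in 8 of 15 settings, with adjusted p from 0.00677 to 0.167. It was lost without any 1 control or without mass 1 or 2, and also with DESeq2 size factors and with no filter. The FPKM ratio of Nop58 to Nop56 was 3.17 ± 0.247 in T58A lymphomas, 2.51 ± 0.154 in S62A lymphomas, 2.16 ± 0.339 in masses and 1.30 ± 0.113 in controls, without overlap between control and any other group.

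Dkc1, dyskerin, the pseudouridine synthase of box H/ACA particles, rose by 1.19 ± 0.17 in the T58A lymphomas and 1.53 ± 0.17 in the S62A lymphomas and was at 0.21 ± 0.17 in masses. Nolc1, a chaperone of both kinds of snoRNP, rose by 0.89 ± 0.13 in the T58A lymphomas, 0.91 ± 0.13 in the S62A lymphomas and 0.35 ± 0.13 in masses. The call in masses (adjusted p = 0.0381) held in 7 of 15 settings, with adjusted p from 0.0107 to 0.143. It was lost without any 1 control or without mass 2 or 3. It was also lost with library size alone and with limma on FPKM. Several members are also hosts of snoRNAs: 8 of 33 genes, or 24.2%, contain annotated snoRNA genes in their span on GRCm38, against 1.54% of 14315 protein-coding genes tested. Those 8 are Nop56 with 5, Nop58 with 4, Ncl, Gnl3 and Wdr43 with 3 each, Ppan and Tsr1 with 2 each and Dkc1 with 1. Mature snoRNAs lack poly(A) tails, and their levels are not described here.

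All 4 of the other nucleolar proteins rose in both kinds of lymphoma, with medians of 1.42 in T58A lymphomas and 1.56 in S62A lymphomas. In splenomegaly masses 2 of the 4 rose, with a median of 0.64. The share of all tested genes that rose was 18.8% for T58A lymphomas, 21.9% for S62A lymphomas and 22.9% for masses. Npm1, nucleophosmin, a histone and ribosome chaperone, was at 826, 728 and 674 CPM in T58A lymphomas, 689, 841 and 919 in S62A lymphomas, 279.8, 385 and 386 in masses and 302, 278 and 249 in controls. Mass 1 lay within the controls and the other masses above them, with no lymphoma near either. Npm1 rose by 1.43 ± 0.16 in T58A lymphomas (adjusted p = 0.000113) and 1.56 ± 0.17 in S62A lymphomas (adjusted p = 4.6e-05), and was at 0.34 ± 0.16 in masses (adjusted p = 0.101). Npm1 has near-identical processed copies in the genome and the rule for multiply mapped reads is not given in the sources used here, so its level is uncertain. The Npm1 transcript with the fewest reads gave 1.11 in the T58A lymphomas, 1.34 in the S62A lymphomas and 0.17 in masses.

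Ncl, nucleolin, an RNA-binding protein of the nucleolus, was at 2099, 2008 and 2076 CPM in T58A lymphomas, 1659, 1886 and 1519 in S62A lymphomas, 719.9, 1233 and 1114 in masses and 810.3, 801 and 745 in controls. T58A lymphomas were the highest group, and mass 1 lay below the controls while the other masses lay above. The fold change was 1.39 ± 0.18 in T58A lymphomas (adjusted p = 0.000249), 1.10 ± 0.18 in S62A lymphomas (adjusted p = 0.000728) and 0.38 ± 0.18 in masses (adjusted p = 0.1). Ddx21, a helicase that couples polymerase I transcription to RNA processing, was at 417, 327 and 471 CPM in T58A lymphomas, 566, 452 and 424 in S62A lymphomas, 244, 321 and 319 in masses and 149, 139 and 137 in controls. Every mass exceeded every control, and mass 2 approached the lowest T58A lymphoma. Ddx21 had the largest fold change of any member in masses, 1.06 ± 0.17 (adjusted p = 0.000442), and rose by 1.52 ± 0.17 in T58A lymphomas and 1.76 ± 0.17 in S62A lymphomas. Mybbp1a, a nucleolar protein that binds polymerase I and other transcription factors, rose by 1.42 ± 0.15 in the T58A lymphomas, 1.56 ± 0.15 in the S62A lymphomas and 0.89 ± 0.15 in masses.

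**Figure D4:**
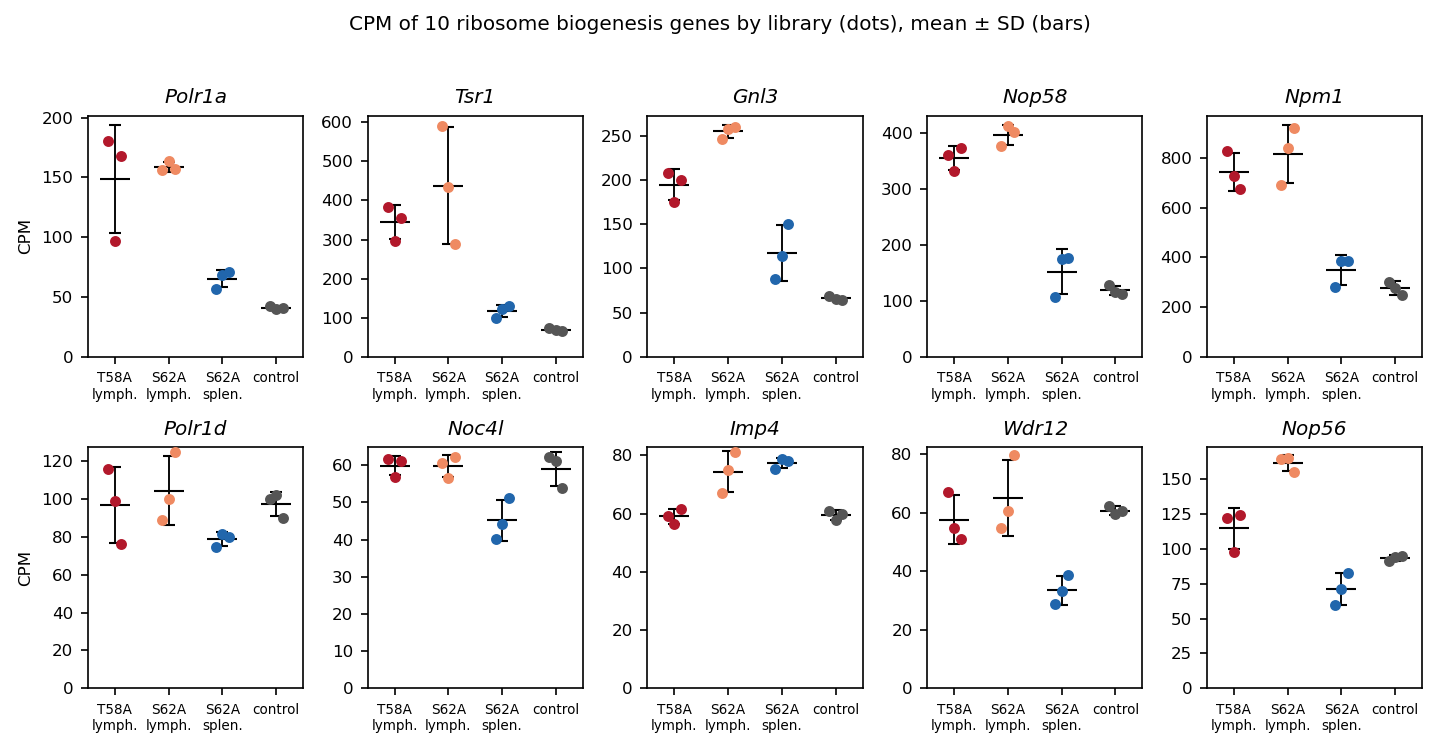
CPM of 10 members in each library. The vertical axes are CPM from 0, dots are libraries, long ticks are group means and bars SD of 3 libraries, with lymph. for lymphoma and splen. for splenomegaly mass. In the upper row (Polr1a, Tsr1, Gnl3, Nop58, Npm1) the lymphoma libraries exceed all controls; in the lower row (Polr1d, Noc4l, Imp4, Wdr12, Nop56) T58A lymphomas lie at or near the control level.

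Levels between genes were compared on FPKM. Npm1 was the highest member in all 4 groups, at 777 ± 70.4 in T58A lymphomas, 814 ± 121 in S62A lymphomas, 347 ± 65.2 in masses and 295 ± 30.2 in controls. Utp20, Polr1e, Rrp12 and Polr1b were among the 5 lowest in both lymphoma groups. The order of the members was not the same in all tissues. Tsr1 ranked 5 of 33 in T58A and in S62A lymphomas, 17 in masses and 23 in controls. Polr1d ranked 6 in T58A lymphomas, 7 in S62A lymphomas, 4 in masses and 2 in controls.

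The masses carried a mixed pattern against control. The 15 members that rose were Polr1a and Polr1b, the small subunit factors Utp20, Rrp12, Imp4, Tsr1 and Wdr43, the large subunit factors Nop16, Pes1, Gnl3 and Rrs1, the snoRNP proteins Fbl and Nolc1, and Ddx21 and Mybbp1a. The 3 that fell were Noc4l, Wdr12 and Nop56. Without mass 1, the lowest library, 20 members rose, where 20.4% of tested genes did, the additional ones being Nop14, Nop58, Dkc1, Ncl and Npm1, and only Wdr12 fell. The count of falls was also 1 without control 1, control 2 or mass 2. It was 7 with limma on log2 of the authors' FPKM + 1, where 32.3% of tested genes fell and Polr1d, Rrp9, Nle1 and Ppan were added.

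S62A lymphomas were also compared with T58A lymphomas. None of the 33 members passed the threshold in either direction by edgeR's quasi-likelihood test, where 0.859% of all tested genes rose and 2.29% fell in S62A lymphomas, and 9 had an unadjusted p under 0.05, as did 23.4% of all tested genes. The median log2 difference of the members was 0.15, that of all tested genes -0.01. Of the members 12 were higher in S62A lymphomas without overlap and 1, Ncl, was lower, where 10% and 11.0% of tested genes were. The smallest adjusted p belonged to Nop56, at 165, 165 and 155 CPM in S62A lymphomas and 122, 98.0 and 124 in T58A lymphomas, with a difference of 0.49 ± 0.13 (adjusted p = 0.0681). Rrs1 followed at 0.39 ± 0.11 (adjusted p = 0.0697), with 100.5, 120.1 and 109.9 CPM in S62A lymphomas and 79.1, 82.6 and 89.9 in T58A lymphomas. Neither gene overlapped between the groups. In the other direction Ncl stood at -0.29 ± 0.18 (adjusted p = 0.359) and Rrp12 at -0.20 ± 0.13 (adjusted p = 0.389). DESeq2 called 4 members higher in S62A lymphomas, Nop56, Rrs1, Imp4 and Utp20, where 3.98% of the genes it tested were called higher, and limma on FPKM called 0. Without T58A lymphoma 1 edgeR called 2 higher, Utp20 and Nop2, where 1.32% of tested genes were. A p above the threshold with 3 libraries a group does not show that the levels were equal.

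The splenomegaly masses lay below both kinds of lymphoma. Against S62A lymphomas 30 of 33 members fell and 0 rose, where 28.6% of tested genes fell and 25.6% rose, with a median of -0.93 against -0.07 for all tested genes. Against T58A lymphomas 28 fell and 1 rose, where 24.6% of tested genes fell and 20.5% rose, with a median of -0.70 against -0.07 for all tested genes. Without overlap 32 members were lower in masses than in S62A lymphomas, where 30.2% of tested genes were. Against T58A lymphomas 30 were lower and 1 higher without overlap, where 29.9% and 26.1% of tested genes were. Proliferation markers summed to 1490 to 2164 CPM in masses, 2826 to 4242 in S62A lymphomas and 2893 to 2956 in T58A lymphomas, and their part in these falls was not tested.

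Nle1 had the smallest adjusted p in both of these comparisons. It was at 26.5, 23.7 and 19.8 CPM in masses, against 66.5, 73.1 and 72.3 in S62A lymphomas and 81.2, 72.8 and 64.1 in T58A lymphomas. The difference was -1.60 ± 0.14 from S62A lymphomas (adjusted p = 9.72e-06) and -1.64 ± 0.14 from T58A lymphomas (adjusted p = 1.41e-05). Nop2 was next against S62A lymphomas, at -1.56 ± 0.17 (adjusted p = 3.23e-05), and Rrp12 next against T58A lymphomas, at -1.15 ± 0.13 (adjusted p = 8.04e-05). Tsr1 had the largest difference from S62A lymphomas, -1.90 ± 0.22. Imp4 alone rose in masses against T58A lymphomas, by 0.39 ± 0.10 (adjusted p = 0.00955), and was at 0.06 ± 0.10 against S62A lymphomas (adjusted p = 0.665). By step, snoRNP proteins had the lowest medians, -1.26 against S62A and -0.98 against T58A lymphomas, and all 5 of them fell in both comparisons. Polymerase I subunits fell in 4 of 5 cases against S62A lymphomas and in 1 of 5, Polr1a, against T58A lymphomas. Over all tested genes 28.6% fell against S62A lymphomas and 24.6% against T58A lymphomas. All 5 polymerase I estimates against T58A lymphomas were below 0. Among those not called, Polr1c was at -0.54 ± 0.21 (adjusted p = 0.056) and Polr1b at -0.37 ± 0.15 (adjusted p = 0.0691).

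A wider list of 121 further genes of ribosome assembly, of which 120 were tested, was counted in the same way. In T58A lymphomas 79 rose and 7 fell, where 18.8% of all tested genes rose and 17.4% fell, with a median of 0.69 against 0.01 for all tested genes. In S62A lymphomas 86 rose and 6 fell, where 21.9% and 22.2% of all tested genes did, with a median of 0.75 against 0.00. In splenomegaly masses 34 rose and 19 fell, where 22.9% and 26.3% of all tested genes did, with a median of 0.10 against -0.08. By step in T58A lymphomas, 5 rose and 3 fell of 14 genes for polymerase I, 36 and 2 of 47 for the small subunit, 28 and 1 of 45 for the large subunit and 10 and 1 of 14 for snoRNPs. In S62A lymphomas these counts were 8 and 3, 36 and 1, 32 and 1, and 10 and 1, in the same order of steps. In masses they were 2 and 4, 15 and 5, 14 and 6, and 3 and 4, where 22.9% of all tested genes rose and 26.3% fell. The falls among the 14 polymerase I and the 14 snoRNP genes were near that share. The medians of these 2 steps in masses were -0.11 and 0.06.

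Within the polymerase I list, Taf1d had the largest and Taf1c the smallest log2 fold change against control in all 3 groups. Both encode subunits of the promoter selectivity factor, whose other listed subunits, Taf1a and Taf1b, are not described here. Taf1d rose by 1.66 ± 0.15 in the T58A lymphomas, 2.21 ± 0.16 in the S62A lymphomas and 0.47 ± 0.15 in masses, whereas Taf1c fell by 1.58 ± 0.15, 1.83 ± 0.15 and 2.17 ± 0.15 in the same groups. Taf1c averaged 40.3 ± 7.66 CPM in T58A lymphomas, 33.9 ± 2.87 in S62A lymphomas, 26.7 ± 0.883 in masses and 120 ± 13.2 in controls. Rrn3, which recruits polymerase I to that factor, rose in masses by 0.38 ± 0.13 (adjusted p = 0.0289). Of small subunit genes Pno1, needed for the last cleavage of the small subunit RNA, rose by 1.64 ± 0.15 in T58A lymphomas and 1.75 ± 0.15 in S62A lymphomas, and Bysl, another factor of the late particle, fell by 0.80 ± 0.24 and 1.16 ± 0.24. Bysl averaged 261 ± 59.6 CPM in T58A lymphomas, 203 ± 72.8 in S62A lymphomas, 91.2 ± 7.16 in masses and 453 ± 63.9 in controls, and fell by 2.31 ± 0.25 in masses. Rrp15, a large subunit factor, rose by 1.79 ± 0.13 in T58A and 1.89 ± 0.13 in S62A lymphomas, and Nsa2, of the same step, by 1.20 ± 0.13 in masses. Shq1, the chaperone of free dyskerin, rose by 2.05 ± 0.22 in the T58A lymphomas, 2.08 ± 0.22 in the S62A lymphomas and 0.98 ± 0.22 in masses. Tcof1, treacle, which works with Nolc1 on polymerase I, was not called in the lymphomas, at -0.43 ± 0.26 in T58A and -0.19 ± 0.26 in S62A, and fell by 0.99 ± 0.26 in masses.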

How the data were processed

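Poly(A) RNA of 12 libraries in 4 groups of 3 was prepared with a directional kit and sequenced, per the labels' protocols. The authors deposited, for each library, whole-number read counts per transcript with FPKM values beside them. Per the submitters' processing notes processing used Bowtie 1.0.0, bcl2fastq 2.20.0.422 and DESeq2 on the mouse build mm9. How reads were counted, with which strand setting and with what rule for multiply mapped reads, is not given in the sources used here.

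Of 36141 transcript rows, the row with the most reads represented each of 24478 symbols. edgeR 4.0.16 (R 4.3.3) was fitted with TMM scaling, filterByExpr at a minimum count of 10 and all 12 libraries, with group as the only term, and tested by quasi-likelihood with Benjamini-Hochberg adjustment over 15606 genes at 0.05. CPM used the same TMM-scaled library sizes. The code was tested on simulated counts. Levels between genes and partner ratios used the deposited FPKM, whose length scaling is the authors'. Totals of 9577373 to 22437969 reads per library set the counting precision.

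Alternatives were DESeq2 1.42.0 and its size factors, library size alone, no filter, the row with the fewest reads, fits of only the groups compared, title code H only, each library left out, and limma 3.58.1 on log2(FPKM + 1) and log2(FPKM + 0.1). Members and lists were chosen with earlier results of these data known. Values in every library were given for the highest member of each step, those with the largest and smallest changes in lymphomas, those not called or lower, and, between tumour groups, those with the smallest adjusted p. A few further members were given in full because of their contrast. Of the wider list, examples come from the largest and smallest changes per step.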

Additional observations from a re-analysis of the deposited data

Results flagged for a closer look

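Nop56 changed in opposite directions against control in the 2 S62A tissues, and the difference between these tissues was itself tested. It stood at -1.18 ± 0.13 log2 units in splenomegaly masses relative to S62A lymphomas (edgeR's quasi-likelihood test, Benjamini-Hochberg adjusted p = 4.71e-05), with 60.0, 71.5 and 82.9 CPM in the masses and 165, 165 and 155 in the S62A lymphomas. Against control it was at -0.39 in masses and 0.79 in S62A lymphomas. The fall against control in masses was past the threshold in 8 of 15 settings. The groups also differed in B and T cell markers, whose part in the result was not tested.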

How the results depend on the processing

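No paired analysis was possible because the labels carry no replicate number that links libraries across groups. Of the single-gene values followed under the alternatives, 1421 kept direction and side of the threshold, 73 lost it, 23 gained it and 42 changed sign. These values covered every member against control. Between tumour groups they covered only selected values of Nop56, Rrs1, Ncl, Rrp12, Imp4, Nle1 and Nop2. The calls of Utp20, Imp4 and Nop2 as higher in S62A than in T58A lymphomas are outside this tally. Against control, the members past the threshold in every setting numbered 27 in S62A lymphomas and 11 in splenomegaly masses, over 15 settings each. T58A lymphomas had 16 settings, of which title code H only leaves 1 control and is not comparable. Outside that setting only Polr1c and Bop1, of the 27 members called higher in T58A lymphomas, lost their call in any setting.

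With title code H only, 7 members rose in T58A lymphomas against 1 control, where 1.11% of tested genes did. The S62A lymphoma median against control was 1.12 with library size alone, 1.04 with limma on log2(FPKM + 1) and 1.05 on log2(FPKM + 0.1). Falls in masses numbered 7 with limma at both pseudocounts, where 32.3% of tested genes fell at a pseudocount of 1, and DESeq2 called 4 members higher in S62A than in T58A lymphomas, where 3.98% of tested genes were. The cause of these differences was not tested. Library size alone put the median of all genes in masses against control at -0.19, against -0.08 with TMM.

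With each library left out in turn, the number higher in S62A than in T58A lymphomas ran from 0 to 2, with medians of 0.11 to 0.26. S62A lymphomas against control had medians of 1.20 to 1.35. Falls in masses against control ran from 1 to 3 and rises from 11 to 20, the lowest without control 2. Masses against T58A lymphomas had medians of -0.79 to -0.52.

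The sign changes concerned values that passed the threshold in no setting. Noc4l in T58A lymphomas was at -0.0054 with DESeq2 size factors, -0.0082 with library size alone, -0.0021 with no filter, -0.0050 with DESeq2, and -0.0042 and -0.0043 with limma at pseudocounts of 1 and 0.1. In S62A lymphomas it was at -0.013 with DESeq2 size factors, -0.077 with library size alone, -0.012 with DESeq2, and -0.074 and -0.076 with limma at 1 and 0.1. Polr1d in T58A lymphomas was at 0.28 in the row with the fewest reads, 0.017 with only the groups compared and 0.12 with title code H only, and in S62A lymphomas at -0.0064 and -0.0065 with limma at 1 and 0.1. Imp4 in T58A lymphomas was at 0.013 with only the groups compared, and Wdr12 in S62A lymphomas at -0.015 and -0.016 with limma at 1 and 0.1. Polr1e in masses was at 0.041 with DESeq2 size factors, 0.029 with no filter, 0.025 with only the groups compared and 0.038 with DESeq2.

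With a library left out, Imp4 in T58A lymphomas against control ran from -0.041 to 0.011, Noc4l from -0.044 to 0.056, Polr1d from -0.15 to 0.14 and Wdr12 from -0.20 to 0.0060. In S62A lymphomas Noc4l ran from -0.046 to 0.058, Polr1d from -0.044 to 0.21 and Wdr12 from -0.073 to 0.21. In masses Ddx18 ran from -0.13 to 0.038, Polr1e from -0.026 to 0.10 and Wdr74 from -0.13 to 0.012. In masses against S62A lymphomas Imp4 ran from -0.018 to 0.13. Depth limits Fbl most, with 3291 reads in all.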
